A study of Mus musculus with 6 samples.

Results

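The 10 genes described here, Fap, Pdgfra, Pdgfrb, Thy1, Pdpn, Acta2, Tagln, Dcn, Lum and Postn, are widely used markers of cancer-associated fibroblasts, the connective tissue cells that surround and infiltrate a carcinoma. They were taken by gene symbol from the gene tables of the series. All 10 were present among 55385 genes, and all 10 were among the 19427 genes that passed the filter on low counts. The series measured RNA from mammary tumors of 3 control and 3 DMHCA-treated female NeuT/ATTAC mice. Both groups carried a constitutively active rat ErbB2 gene, expressed in mammary epithelium from the MMTV promoter, and an FKBPv-caspase-8 fusion under the FABP4 promoter, which is active in fat cells. The dimerizer AP20187 (0.4 mg/kg, begun at an age of 6 weeks) activates the caspase, so that mammary fat is partly replaced by fibrotic tissue. Treated mice also ate the LXR agonist DMHCA, which made up 0.05% of the food (100 mg/kg), once they were 8 weeks old. The control label, AP20187 Vehicle, can mean the dimerizer given in its vehicle or the vehicle alone, and the study's account of control tumors from AP20187-treated mice was followed.

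Fibroblasts in a tumor lay down collagen and other matrix, contract it, and signal to epithelial and immune cells. Myofibroblasts carry the contractile proteins encoded by Acta2 and Tagln, fibroblasts of normal connective tissue carry much Pdgfra, Dcn and Lum, and activated stroma carries Fap and Postn. None of the 10 genes is restricted to fibroblasts, since pericytes also use Pdgfrb, myoepithelial and smooth muscle cells Acta2 and Tagln, T cells Thy1, and lymphatic endothelium and the stroma of lymph nodes Pdpn.

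The 6 libraries held 46358654 to 63420620 reads assigned to genes. DMHCA libraries 1 and 3 were nearly the same. Their biological coefficient of variation, the variation beyond counting noise, was 0.0327, against 0.376 to 0.579 in the other pairs within a group, and for the 10 markers they differed by 0.00565% to 9.10%. Although 18.2% of 13380 genes differed between them by a chi-square test, against 82.0% to 87.0% in the other pairs, they were counted as 1 sample, here called the merged DMHCA sample. This left 3 control and 2 DMHCA samples. Control 3 stood apart. Genes of lymph node stroma (Ccl19, Ccl21a, Cxcl13, Cr2 and Madcam1) summed to 491 TPM, a measure of transcript abundance corrected for transcript length and depth, in control 3 and to 2.5 to 45.6 TPM in the other samples. The log2 ratios of the 10 markers, and the list medians printed, are therefore also given without control 3.

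For none of the 10 fibroblast markers was a change with DMHCA resolved beyond the spread between samples. In simulated counts of this comparison, 15.5% of genes changed 4-fold were called, so changes of that size can be missed. By edgeR's quasi-likelihood test, 0 of 10 had an adjusted p under 0.05 (0% of all 19427 genes) and 0 of 10 had an unadjusted p under 0.05 (7.61% of all genes, with 4.08% lower and 3.53% higher). Without control 3, 0 of 10 had an unadjusted p under 0.05 as well, where 3.27% of all genes were lower and 2.16% higher. DESeq2 also gave an adjusted p under 0.05 to 0 of 10, both on the 5 samples (1.36% of all genes) and with the 6 libraries as separate samples (4.74%), and its unadjusted p was under 0.05 for 1 of 10 markers on the 5 samples (10.9% of all genes) and for 3 of 10 on the 6 libraries (17.8% of all genes). The fitted value was lower with DMHCA for 8 of the 10 genes, against 52% of all genes, and the median log2 ratio of DMHCA to control was -0.47 (all genes -0.03). Without control 3, that median was -0.06 and 6 of the 10 were lower. In 9 of the 10 genes control 3 was the highest of the 5 samples, as it was for 27.4% of all genes tested. The exception was Pdgfrb, which was highest in DMHCA 2. In bulk tumor RNA, fewer cells of a type and less RNA per cell cannot be told apart.

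**Figure D1:**
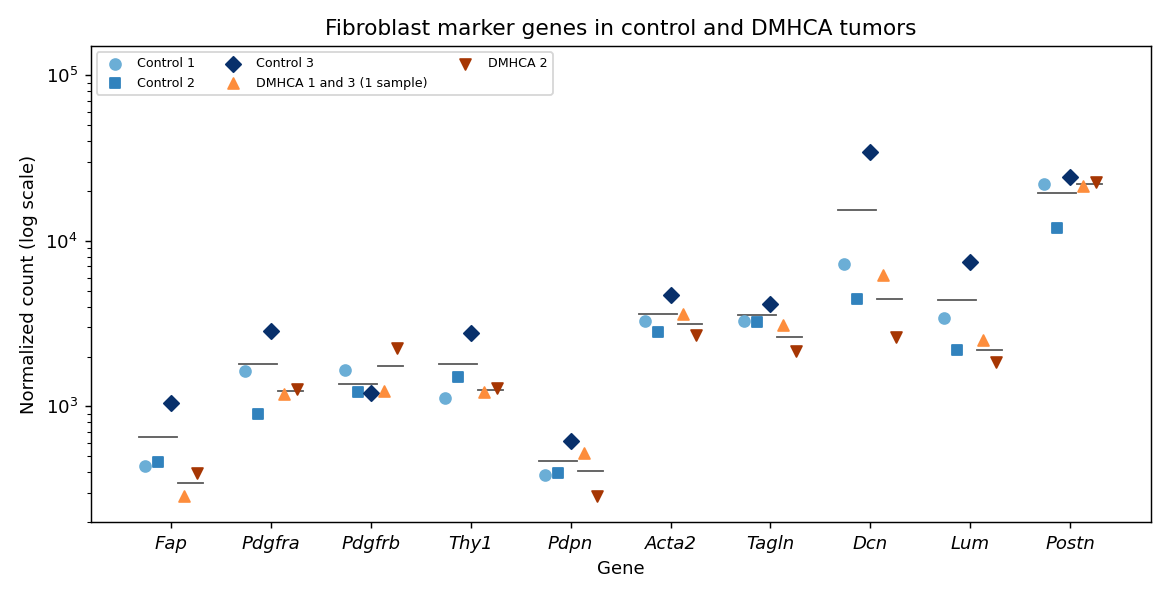
Normalized counts (log axis) of the 10 fibroblast markers in each of 5 samples, with DMHCA libraries 1 and 3 as 1 sample. Grey lines are group means. Control 3 (dark diamonds) is the highest sample for each gene but Pdgfrb, and is 4.74 times the next highest sample for Dcn.

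Fap (ENSMUSG00000000392, chromosome 2 of GRCm38, 62500943 to 62574075, minus strand) encodes fibroblast activation protein, a membrane serine protease of activated stroma. Its normalized counts, which are scaled for depth, came to 436, 462 and 1054 in controls 1, 2 and 3, to 289 in the merged DMHCA sample and to 399 in DMHCA 2. Both DMHCA samples lay below all 3 controls in normalized counts. In TPM the groups overlapped, with 3.93 in control 2 and 5.06 in DMHCA 2. The means were 651 ± 350 (SD, n = 3) for control and 344 ± 77.5 (SD, n = 2) for DMHCA tumors, with a log2 ratio of -0.92 (SE 0.53, 95% interval -2.19 to 0.35, edgeR adjusted p = 0.668). Leaving out control 3 gave -0.39. A separation of this kind towards lower values was found for 2 of the 10 markers, Fap and Tagln, against 12.2% of all genes, and towards higher values for 0 of 10, against 13.8%. In TPM it was found for 0 of 10 in either direction, against 6.97% of all genes lower and 20.3% higher.

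Pdgfra and Pdgfrb encode the receptor tyrosine kinases for platelet-derived growth factors, which drive the growth and migration of mesenchymal cells. Pdgfra (ENSMUSG00000029231, chromosome 5, 75152292 to 75198215, plus strand) was counted at 1643, 894 and 2860 in controls 1, 2 and 3, at 1187 in the merged DMHCA sample and at 1280 in DMHCA 2, all normalized. The DMHCA samples were close to each other and lay between the lowest and the middle control. The log2 ratio of Pdgfra was -0.54 (SE 0.49, 95% interval -1.71 to 0.62, edgeR adjusted p = 0.753), and -0.05 without control 3. Exons of Pdgfra overlap those of Gm42802 and Gm42803 on the opposite strand, to which at most 5 reads were assigned in any sample.

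Pdgfrb (ENSMUSG00000024620, chromosome 18, 61045150 to 61085061, plus strand) was lowest where Pdgfra was highest. Its normalized counts stood at 1656, 1231 and 1210 in controls 1, 2 and 3, at 1239 in the merged DMHCA sample and at 2251 in DMHCA 2. DMHCA 2 was above every other sample, while the merged DMHCA sample was within the range of the controls. For Pdgfrb the log2 ratio was 0.35 (SE 0.35, 95% interval -0.48 to 1.18, edgeR adjusted p = 0.771), 0.27 without control 3 and -0.10 without DMHCA 2. DMHCA 2 was also the highest sample for 4 of 6 pericyte genes (22.0% of all genes), and control 2 for Rgs5 and Mcam. Their sum reached 142 TPM there, 89.8 TPM in the merged DMHCA sample and 52.3 to 101.5 TPM in the controls. Among them, Abcc9, a channel subunit of pericytes, had a normalized count of 5749 in DMHCA 2 and of 840 to 1689 in the other samples. The part of pericytes in the level of Pdgfrb was not tested.

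The ligands of these receptors were measured in the same libraries. Of Pdgfa, Pdgfb, Pdgfc and Pdgfd, 0 of 4 had an adjusted p under 0.05 by edgeR and 1 of 4 an unadjusted p under 0.05 (7.61% of all genes). That gene was Pdgfd, whose product acts on the beta receptor. Its normalized counts amounted to 1448, 2679 and 1330 in controls 1, 2 and 3, to 628 in the merged DMHCA sample and to 448 in DMHCA 2. Both DMHCA samples lay below the controls, as they did for 12.2% of all genes, and did so in TPM as well. Pdgfd had a log2 ratio of -1.76 (SE 0.42, edgeR adjusted p = 0.644), and -1.94 without control 3. Pdgfa, Pdgfb and Pdgfc had log2 ratios of -0.73, -0.06 and 0.22, and their groups overlapped.

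Thy1 (ENSMUSG00000032011, chromosome 9, 44043384 to 44048579, plus strand) encodes the surface glycoprotein CD90 of fibroblasts and T cells. Controls 1, 2 and 3 showed 1131, 1506 and 2757 normalized counts of Thy1, the merged DMHCA sample 1219 and DMHCA 2 1297. The DMHCA samples lay between controls 1 and 2. For Thy1 the log2 ratio of -0.52 (SE 0.42, 95% interval -1.52 to 0.49, edgeR adjusted p = 0.738) became -0.07 when control 3 was left out. In control 3 the 6 T cell genes (Cd3e, Cd3d, Cd3g, Cd2, Lck and Trac) summed to 239 TPM, against 4.05 to 25.3 TPM in the other samples, and all 6 were highest there. Their part in the level of Thy1 was not tested.

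Pdpn (ENSMUSG00000028583, chromosome 4, 143267431 to 143299564, minus strand) encodes podoplanin, a mucin-like membrane protein. For Pdpn, 385, 399 and 623 normalized counts were found in controls 1, 2 and 3, 527 in the merged DMHCA sample and 286 in DMHCA 2. The DMHCA samples thus lay on either side of controls 1 and 2. The log2 ratio of Pdpn was -0.20 (SE 0.46, 95% interval -1.32 to 0.91, edgeR adjusted p = 0.909), and 0.05 without control 3. Genes of lymphatic endothelium (Lyve1, Prox1, Flt4 and Mmrn1) summed to 8.3 TPM in control 3 and 8.645 TPM in the merged DMHCA sample, the samples with the most Pdpn, and to 3.52 to 4.95 TPM in the other 3. Prox1, a transcription factor of lymphatic identity, had normalized counts of 309 and 305 in those samples and of 5.06 to 71.2 in the others. Flt4, the gene of a receptor of lymphatic vessels, had another order, being lowest in control 3 (156 normalized counts) and highest in DMHCA 2 (452), where Pdpn was highest and lowest. The part of lymphatic vessels and lymph node stroma in the level of Pdpn was not tested.

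Acta2 (ENSMUSG00000035783, chromosome 19, 34241090 to 34255590, minus strand) encodes alpha smooth muscle actin, the usual stain for myofibroblasts. Acta2 gave normalized counts of 3287, 2805 and 4733 in controls 1, 2 and 3, of 3604 in the merged DMHCA sample and of 2684 in DMHCA 2. The groups overlapped. The means of 3608 ± 1003 (SD, n = 3) and 3144 ± 650 (SD, n = 2) corresponded to a log2 ratio of -0.20 (SE 0.32, 95% interval -0.96 to 0.56, edgeR adjusted p = 0.862), and 0.04 without control 3. The actin genes are close paralogs, but of all 50-base stretches of Acta2 transcripts, 0.326% also occur in a transcript of another gene.

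Tagln (ENSMUSG00000032085, chromosome 9, 45929619 to 45936058, minus strand) encodes transgelin, an actin-binding protein of smooth muscle and myofibroblasts. Tagln was present at 3257, 3213 and 4174 normalized counts in controls 1, 2 and 3, at 3122 in the merged DMHCA sample and at 2157 in DMHCA 2. In normalized counts both DMHCA samples were below the controls, the merged sample by a narrow margin, whereas in TPM the groups overlapped (45.3 in control 2, 58.6 in the merged DMHCA sample). Its log2 ratio was -0.43 (SE 0.28, 95% interval -1.10 to 0.25, edgeR adjusted p = 0.688), and -0.30 without control 3. On the opposite strand, exons of Pcsk7 and Gm48529 overlap Tagln and together share 47.6% of its 50-base stretches. Most of these stretches are shared with Gm48529, and few with Pcsk7. Since the use of strand in counting is not stated, Tagln reads in the shared part may have been divided with these genes. In a sample, Gm48529 was assigned 151 to 426 reads, Pcsk7 2546 to 7117 and Tagln 2132 to 6221. These reads are not scaled, and each range has its top in the merged DMHCA sample, the sum of DMHCA libraries 1 and 3.

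Of 12 other contractile genes, 0 had an adjusted and 0 an unadjusted p under 0.05 by edgeR (7.61% of all genes for the latter). Of these, 8 had a lower and 4 a higher fitted value, with a median log2 ratio of -0.43, or -0.13 without control 3. Myh11, the myosin heavy chain of smooth muscle, had 2160 normalized counts in control 3 and 179 to 739 in the other samples, and its log2 ratio of -1.16 was 0.01 without control 3. Synpo2 (-1.08, or -0.39 without control 3) and Myl9 (-0.52, or -0.25) were also highest in control 3, and their groups overlapped. The summed level of the 12 genes was lowest in control 3 (546 TPM) and 712 to 753 TPM in the other samples. Much of that sum in control 3 came from Tpm1 (243 TPM) and Cald1 (141 TPM). By gene, 5 of the 12, among them Myh11, Synpo2 and Myl9, were highest in control 3 (27.4% of all genes). The 5 genes of myoepithelial and basal cells, which carry Acta2 and Tagln too, summed to 55.3 TPM in control 3 and to 2.51 to 13.1 TPM in the other samples. Skeletal muscle genes were highest in control 2 (1021 TPM) and lowest in DMHCA 2 (247 TPM). The part of these cells in the level of Acta2 and Tagln was not tested.

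Dcn and Lum encode decorin and lumican, small leucine-rich proteoglycans that bind collagen fibrils, and lie 46984 bases apart on chromosome 10. Dcn (ENSMUSG00000019929, 97479609 to 97518143, plus strand) varied most among the 10 markers. Normalized Dcn counts of 7197, 4444 and 34142 were found in controls 1, 2 and 3, of 6208 in the merged DMHCA sample and of 2636 in DMHCA 2. Control 3 far exceeded the rest, and the other controls lay on either side of the merged DMHCA sample. The means were 15261 ± 16409 (SD, n = 3) for control and 4422 ± 2526 (SD, n = 2) for DMHCA tumors. The log2 ratio of Dcn, -1.79 (SE 0.94, 95% interval -4.05 to 0.47, edgeR adjusted p = 0.649), was the farthest from 0 of the 10, and was -0.40 without control 3.

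Lum (ENSMUSG00000036446, 97565128 to 97572703, plus strand) put the samples in the same order as Dcn, over a narrower range. Lum stood at 3418, 2202 and 7488 normalized counts in controls 1, 2 and 3, at 2515 in the merged DMHCA sample and at 1843 in DMHCA 2. Control 2 lay below the merged DMHCA sample, so that the groups overlapped. Lum had a log2 ratio of -1.003 (SE 0.53, 95% interval -2.28 to 0.28, edgeR adjusted p = 0.649), and -0.37 without control 3.

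Postn (ENSMUSG00000027750, chromosome 3, 54361109 to 54391037, plus strand) encodes periostin, a matricellular protein secreted by activated fibroblasts. Normalized Postn counts reached 21910, 11968 and 24191 in controls 1, 2 and 3, 21534 in the merged DMHCA sample and 22684 in DMHCA 2. The DMHCA samples were near controls 1 and 3 and above control 2. The means of 19356 ± 6500 (SD, n = 3) and 22109 ± 813 (SD, n = 2) corresponded to a log2 ratio of 0.19 (SE 0.38, 95% interval -0.71 to 1.10, edgeR adjusted p = 0.893). Without control 3 it was 0.38, and without control 2 it was -0.06.

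**Figure D2:**
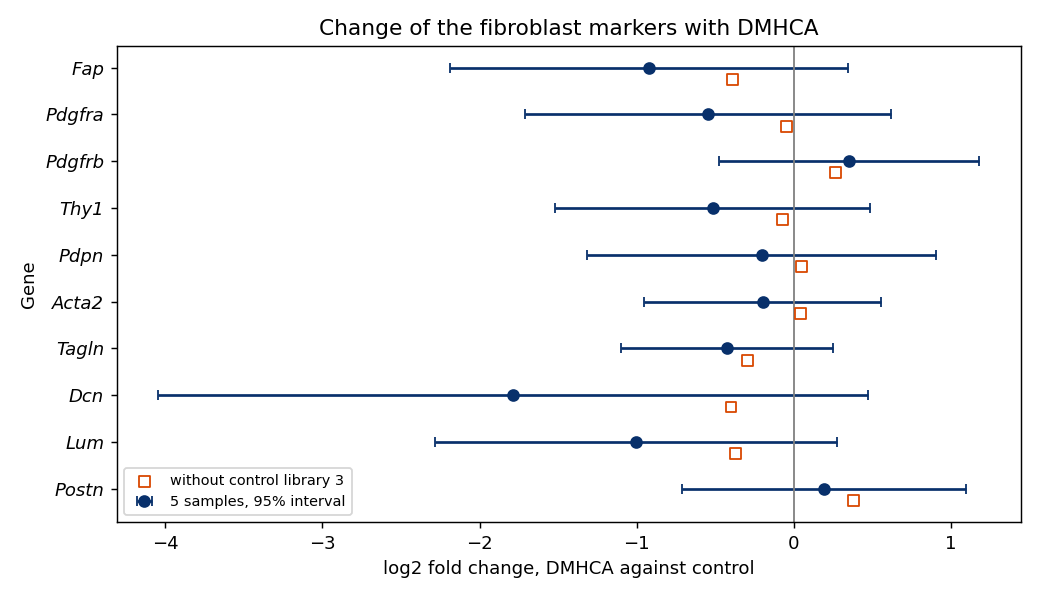
The log2 ratio of DMHCA to control for each marker from 5 samples (filled circles, bars are 95% intervals) and without control 3 (open squares). Each of the 10 intervals includes 0, and without control 3 the values lie between -0.40 (Dcn) and 0.38 (Postn).

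Levels of different genes can be compared in TPM. Over the 5 samples, Postn had the highest mean (200 TPM), followed by Dcn (168 TPM), Tagln (56.5 TPM), Acta2 (46.6 TPM), Lum (37.7 TPM) and Thy1 (33.0 TPM). Control 3 carried the mean of Dcn, which was 79.8 TPM without it, while the order of the 10 means stayed as given. A lower tier held Pdgfrb (7.28 TPM), Pdpn (6.62 TPM), Pdgfra (6.39 TPM) and Fap (5.76 TPM). Neighbours in this order had overlapping ranges, except for Thy1 and Pdgfrb, where the lowest Thy1 (23.6 TPM) was above the highest Pdgfrb (12.0 TPM). Although their ranges overlapped, Dcn was above Tagln, and Tagln above Acta2, within each of the 5 samples.

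A ratio of TPM values within a library does not depend on how libraries are scaled to each other. That of Dcn to Postn was 0.548, 0.565 and 2.10 in controls 1, 2 and 3, 0.474 in the merged DMHCA sample and 0.2035 in DMHCA 2. Both DMHCA samples were below the controls, the merged sample by a narrow margin. Lum to Postn ran from 0.181 to 0.322 in the controls and was 0.134 and 0.0993 in the DMHCA samples. Fap to Postn ran from 0.0234 to 0.0466 in the controls and was 0.0151 and 0.0223 in the DMHCA samples, the latter close to the lowest control. Tagln to Acta2 stayed between 1.01 and 1.55 across the 5 samples. Its groups were apart only by 1.18 in control 3 against 1.177 in the merged DMHCA sample. Pdgfrb to Pdgfra ranged from 0.505 in control 3 to 2.0 in DMHCA 2. Of 7 ratios computed, the groups did not overlap for 5, of which 4 share Postn as the denominator, and overlapped for Dcn to Lum and Pdgfrb to Pdgfra. The ratios were chosen after the values were seen and were not tested, and the share over all pairs of genes was not computed.

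Other genes of fibroblasts and their matrix were spread around 0. Of 23 such genes, 14 had a lower and 9 a higher fitted value, with a median log2 ratio of -0.09, or 0.02 without control 3. By edgeR 0 of 23 had an adjusted p under 0.05 and 1 an unadjusted p under 0.05, a smaller share than the 7.61% of all genes. In 3 of 23, both DMHCA samples were above every control, about the share of all genes (13.8%), and in 0 of 23 they were below (12.2%). In TPM, 4 of 23 were above, against 20.3% of all genes. The gene with an unadjusted p under 0.05 was Fmod, which encodes fibromodulin, a proteoglycan of the family of decorin and lumican. Fmod had normalized counts of 396, 423 and 532 in controls 1, 2 and 3, of 981 in the merged DMHCA sample and of 689 in DMHCA 2. Both DMHCA samples were above the controls, with a log2 ratio of 0.89 (SE 0.36, edgeR adjusted p = 0.644), and 1.02 without control 3. Bgn, which encodes the related proteoglycan biglycan, did not overlap either, with normalized counts of 7665 to 10429 in the controls and of 13745 and 11422 in the DMHCA samples (log2 ratio 0.55, SE 0.28, edgeR adjusted p = 0.648, and 0.46 without control 3). Fbn1, the gene of the microfibril protein fibrillin, had a log2 ratio of 0.64 (SE 0.28), or 0.59 without control 3, and likewise no overlap. Among the proteoglycan genes named so far, Dcn and Lum were highest in control 3, and Fmod and Bgn in the merged DMHCA sample. Further such genes of the list did not share 1 order, Ogn being highest in control 3, Prelp in control 1 and Aspn in DMHCA 2.

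**Figure D3:**
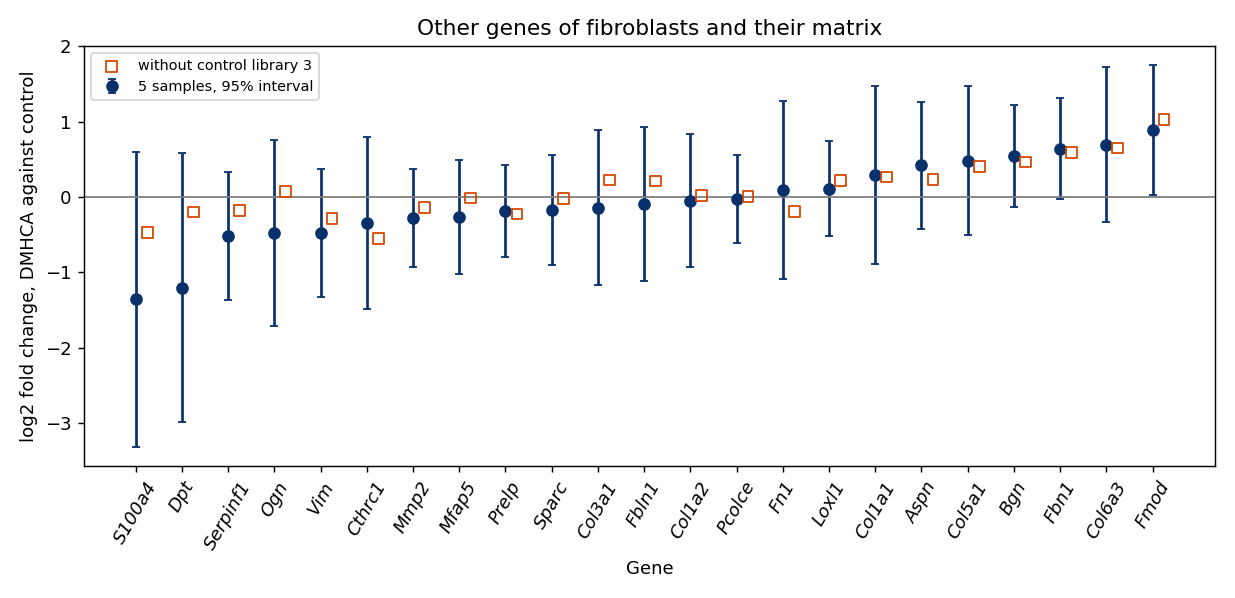
The log2 ratio of DMHCA to control for 23 further genes of fibroblasts and matrix from 5 samples (filled circles, bars are 95% intervals) and without control 3 (open squares). The values run from -1.36 (S100a4) to 0.89 (Fmod), and from 5 samples Fmod is the 1 gene whose interval does not include 0.

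Genes of the inflammatory type of fibroblast were represented by 12 genes, of which 10 had a lower and 2 a higher fitted value. By edgeR 0 of 12 had an adjusted p under 0.05 and 1 an unadjusted p under 0.05, close to the 7.61% of all genes. In 3 of 12 (Cxcl12, Il6 and Ccl7) both DMHCA samples were below every control, against 12.2% of all genes. Il6 was separated only by 19.24 normalized counts in control 1 against 19.22 in DMHCA 2. In TPM both were below every control in 0 of 12, against 6.97% of all genes. The median log2 ratio was -0.69, and -0.47 without control 3. Cxcl12, a chemokine of stromal cells, had normalized counts of 2936, 2295 and 4445 in controls 1, 2 and 3, of 1887 in the merged DMHCA sample and of 1334 in DMHCA 2. In TPM its groups overlapped (22.2 in control 2, 22.8 in the merged DMHCA sample). Its log2 ratio was -1.001 (SE 0.36, edgeR adjusted p = 0.644), or -0.70 without control 3, where its unadjusted p by edgeR was 0.0746. C3, the central complement component, had 19162 normalized counts in control 3 and 1270 to 3537 in the other samples. Has2, which makes hyaluronan, had 539 normalized counts in DMHCA 2 and 77.8 to 165 in the other samples.

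Among 8 transcription factors of fibroblasts, 7 passed the filter on low counts, Tcf21 being the exception. By edgeR 0 of 7 had an adjusted p under 0.05 and 1 an unadjusted p under 0.05 (7.61% of all genes), with 6 lower (52% of all genes) and 1 higher. In 2 of 7 both DMHCA samples were below every control, against 12.2% of all genes, and in TPM in 1 of 7, against 6.97%. Twist2, the gene of that unadjusted p, had normalized counts of 63.5, 54.0 and 151 in controls 1, 2 and 3, of 33.1 in the merged DMHCA sample and of 22.3 in DMHCA 2. Its groups did not overlap on either scale, with a log2 ratio of -1.68 (SE 0.69, edgeR adjusted p = 0.644), and -1.08 without control 3, where its unadjusted p by edgeR was 0.114. Foxf1 (-1.28, or -0.63 without control 3) was separated only by 20.9 normalized counts in control 2 against 20.6 in the merged DMHCA sample, and in TPM its groups overlapped. Runx1 (-0.62, or -0.39) overlapped between groups.

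The 10 markers together summed to 535, 290 and 1080 TPM in controls 1, 2 and 3, to 495 TPM in the merged DMHCA sample and to 438 TPM in DMHCA 2. Control 3 was 2.02 times as high as the next sample, and both DMHCA samples lay between controls 1 and 2. The 5 fat cell genes summed to 203, 123 and 914 TPM in controls 1, 2 and 3 and to 68.7 and 68.8 TPM in the DMHCA samples. In normalized counts 5 of 5, and in TPM 4 of 5, were lower in both DMHCA samples than in every control (12.2% and 6.97% of all genes). The unadjusted p was under 0.05 for 5 of 5 (4.08% of all genes in this direction), also without control 3 (3.27%), and the adjusted p by edgeR was 0.644 for each. Adipoq, the gene of adiponectin, had normalized counts of 279 to 3098 in the controls and of 33.1 and 53.6 in the DMHCA samples. B cell genes summed to 251 TPM in control 3 and to 0.94 to 29.3 TPM in the other samples, and macrophage genes to 71.4 to 147 TPM in the controls and 96.4 and 114 TPM in the DMHCA samples. Blood endothelial genes summed to 48.55 to 86.2 TPM and to 68.2 and 70.1 TPM. Of these 6 genes, 3 had a lower and 3 a higher fitted value, with a median log2 ratio of -0.01, or 0.19 without control 3, where 2 were lower and 4 higher. Cdh5, the gene of an endothelial cadherin, had a log2 ratio of 0.81 (SE 0.25, edgeR adjusted p = 0.644), or 0.75 without control 3, and was above every control in both DMHCA samples (13.8% of all genes). Genes of luminal epithelium summed to 3140 to 4029 TPM in the controls and to 4816 and 4698 TPM in the DMHCA samples. In TPM, 2 of the 6 genes, Krt8 and Krt18, were above all controls in both DMHCA samples (20.3% of all genes), while Krt19 had 20806 normalized counts in control 3 and 63.7 to 1952 in the other samples. Of the 6, 3 had a lower and 3 a higher fitted value, with a median log2 ratio of 0.16, or -0.01 without control 3. Of the genes in the 16 other lists, Tcf21 was the 1 gene at 0 in any sample, and markers of mammary epithelium, fat and fibroblasts were detected throughout. The part of these cell types in the fibroblast markers was not tested.

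**Figure D4:**
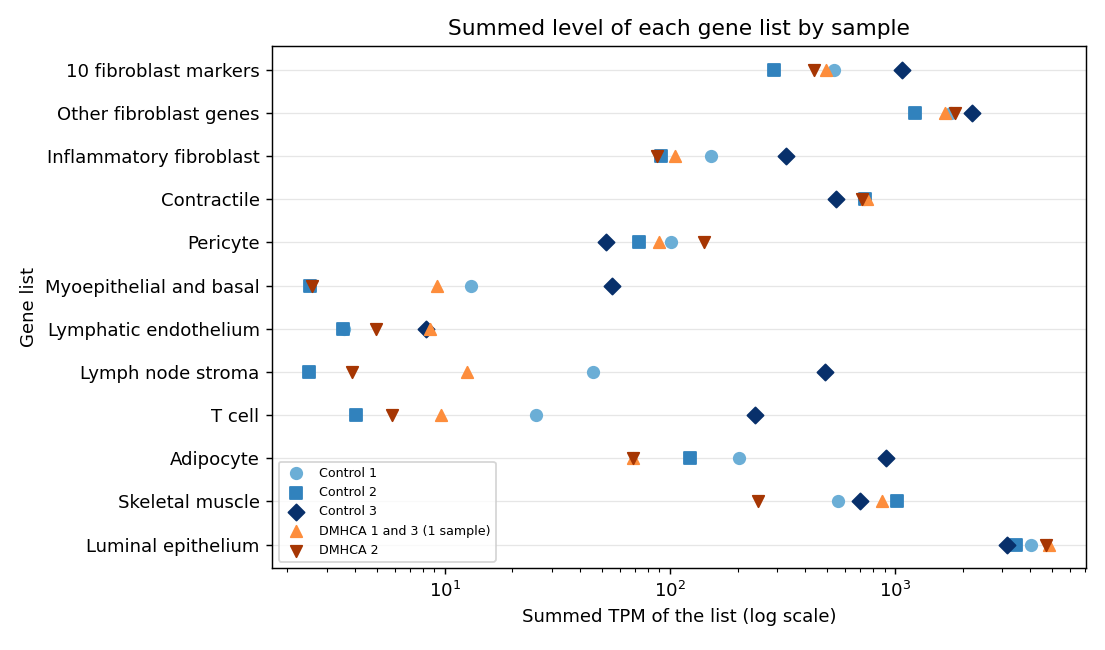
Summed TPM (log axis) of the 10 markers and of 11 other gene lists in each of 5 samples. Control 3 (dark diamonds) is highest for the fibroblast markers (1080 TPM), lymph node stroma (491 TPM), T cell (239 TPM) and fat cell genes (914 TPM). It is also highest for other fibroblast (2193 TPM), inflammatory fibroblast (329 TPM) and myoepithelial and basal genes (55.3 TPM). DMHCA 2 is highest for pericyte genes (142 TPM).

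The genes whose pattern over the 5 samples was nearest to the mean of the 10 markers were sought among 11770 genes with a mean of at least 300 normalized counts. The mean profile of the markers, in log2 units around each gene's own average, was 0.00 in control 1, -0.32 in control 2, 0.80 in control 3, -0.15 in the merged DMHCA sample and -0.34 in DMHCA 2. The 10 nearest genes were Igsf6, Adamts5, Parp11, Prrx1, Spi1, Ccdc80, Id3, Nfam1, Stambpl1 and Gm37086, with root mean square differences of 0.0314 to 0.0970 log2 units. Prrx1 is known as a gene of mesenchymal cells and Spi1 as one of myeloid cells. Since they were chosen as the nearest, these differences cannot be set against those of the markers, which ran from 0.181 (Acta2) to 0.831 (Dcn) log2 units, with Pdgfrb at 0.653.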

How the data were processed

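The members and gene lists were chosen with earlier results of these data known. The authors trimmed reads with Cutadapt 2.9 and quantified genes with RSEM 1.3.1 and Bowtie2 2.4.1 against mm10. For each library the authors deposited RSEM's expected counts, in which reads that fit several genes are divided, with TPM and FPKM. Expected counts were rounded to whole numbers for tests, the deposited TPM gave levels, and the deposited FPKM were not used. RSEM's settings and the use of strand are not given in the sources used here.

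A pair of libraries was merged when its coefficient of variation (over genes averaging 100 or more reads) was below 0.1 and every other pair exceeded it more than 5 times. The merged sample is the sum of DMHCA libraries 1 and 3. For 3 control and 2 DMHCA samples, edgeR 4.0.16 (R 4.3.3) was run with TMM scaling, filterByExpr at its minimum of 10 (total 15), and quasi-likelihood F-tests, adjusted by Benjamini-Hochberg over 19427 genes. Normalized counts use TMM-effective library sizes, brought to the average of the 6 libraries. SE is the size of the log2 ratio over the root of F, and 95% intervals use the degrees of freedom of that test. In simulated counts of this comparison, 15.5%, 81% and 85.5% of 200 genes changed 4-, 8- and 16-fold were called, in 19010, 18998 and 18965 genes.

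Alternatives were DESeq2 1.42.0, the 6 libraries as separate samples with and without a replicate block, other scalings and filters, robust dispersions, limma 3.58.1 on log2(TPM + 1) and leaving out each library. All 10 markers were named, and up to 3 genes of smallest p in each of 16 other lists. Pdgfb, S100a4, Il6, Ccl7, Krt18, Rgs5, Mcam, Tpm1, Cald1, Ogn, Prelp and Aspn were named after their values were seen. Overlapping genes were found, and coordinates taken, in GENCODE M21 (GRCm38), which held 55144 of the 55385 genes.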

Additional observations from a re-analysis of the deposited data

How the results depend on the processing

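Over 17 alternatives, 0 of the 10 markers had an adjusted p under 0.05 (170 values, 0.175 to 0.991), and 163 of 170 log2 ratios kept their direction. The number of markers with an unadjusted p under 0.05, 0 in edgeR on 5 samples, was 1 in DESeq2 on 5 samples (Dcn; 10.9% of all genes), 3 in DESeq2 on 6 libraries (Dcn, Fap and Lum; 17.8%), 1 in edgeR on 6 libraries (Fap; 15.6%) and 2 with no filter on low counts (Dcn and Lum; 7.93%). With each library left out it was 0 to 2, the 2 being Dcn and Lum without control 2 (9.40% of all genes). Genes with an adjusted p under 0.05 numbered 0 in edgeR, 265 in DESeq2 on 5 samples, 886 in DESeq2 on 6 libraries and 16 with no filter on low counts. The median log2 ratio of the markers, -0.47, spanned -0.5626 to -0.0591 with each library left out, the last without control 3. With DMHCA 2 as the only DMHCA sample, an alternative chosen after seeing the data, it was -0.61; the lone sample is then assumed to vary like the controls. The cause of these differences was not tested.

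The sign of Acta2 turned by limma on TPM (0.083), where the median of all genes was 0.11. With each library left out, Acta2 spanned -0.3527 to 0.0418, Pdgfrb -0.1013 to 0.5008, Pdpn -0.3373 to 0.2122 and Postn -0.0617 to 0.3788. Library numbers are not said to pair control and DMHCA mice, and were not taken to pair them. Between control and DMHCA libraries of 1 number, the deviations from group means correlated at -0.0585, 0.342 and 0.359. Between libraries of different numbers they correlated at -0.39 to 0.346. These values do not settle the pairing, since DMHCA libraries 1 and 3 were nearly the same. With the replicate block on 6 libraries, 0 genes had an adjusted p under 0.05 (17.2% an unadjusted one), 1 marker had an unadjusted p under 0.05 (Lum), and the median log2 ratio was -0.40. Among the 23 other fibroblast genes, the 1 gene with an unadjusted p under 0.05 (Fmod) was 0 genes under total count scaling, a minimum of 300 normalized counts, and without control 2 or DMHCA 1. Among the transcription factors, the 1 gene with an unadjusted p under 0.05 was 0 genes under total count scaling, robust dispersions, a minimum of 300 normalized counts, limma on TPM, and without control 1, control 3, DMHCA 1 or DMHCA 2. Among the 12 inflammatory fibroblast genes, the 1 gene with an unadjusted p under 0.05 (Cxcl12) was 0 genes without control 1 or control 3. The number was 2 in DESeq2 on 5 samples (10.9% of all genes) and without control 2 (9.40%), and 4 with no filter on low counts (7.93%). With 2 DMHCA samples, changes inside the intervals given could not be resolved.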
